A study of Mus musculus with 16 samples.

Results

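The kinesin superfamily was followed here in cultured sensory neurons whose microtubules were taken apart with nocodazole, with or without inhibition of the kinase DLK (dual leucine zipper kinase). Members were the rows of the deposited count table whose mouse gene symbol matched the naming pattern of kinesins, Kif or Kifc followed by a number and letters. The pattern matched 44 of the 55356 rows. Of these, 42 are kinesin genes. The other two are Kif1bp, which encodes a protein that binds kinesins and is described with the kinesin partners, and Kif16bos, an RNA from the strand opposite Kif16b. Enough counts for testing were present for 37 of the 42 kinesin genes, among 19156 genes tested in all.

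The neurons came from dorsal root ganglia of CD1 mouse embryos and had been in culture for 6 days with nerve growth factor, fluorodeoxyuridine and uridine, the last pair being used to hold back dividing cells. Every culture received a pretreatment (DMSO, the solvent, or the DLK inhibitor GNE3511 at 500 nM) and, 15 min later, a treatment (DMSO or nocodazole at 200 nM) for 16 h. The 4 groups of 4 libraries are called inhibitor plus nocodazole (GNE3511, then nocodazole), nocodazole (DMSO, then nocodazole), inhibitor (GNE3511, then DMSO) and DMSO (DMSO at both steps). Total RNA was sequenced after ribosomal RNA depletion, and the libraries held between 30987962 and 43321421 counts. With 1 compound at 1 dose, effects through DLK and through other targets of GNE3511 cannot be told apart. Whether replicates are separate cultures or animals is not labelled, and the p-values cover only the spread between libraries, which may be technical.

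Kinesins are motor proteins that use ATP to walk along microtubules, most of them toward the plus end, which in axons points to the axon tip. Neurons rely on them to carry vesicles, mitochondria and RNA from the cell body into long axons, while other kinesins build the mitotic spindle and divide the cell, and still others change how microtubules grow and shrink. DLK is a kinase that reports axon and cytoskeletal damage to the nucleus through JNK, and nocodazole binds tubulin and makes microtubules disassemble.

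The first principal component of all tested genes held 38.2% of the variance and set the nocodazole libraries, at scores of 59.5 to 69.7, apart from the others. In the inhibitor plus nocodazole group, replicate 1 scored 10.4 and replicates 2 to 4 scored -31.4 to -28.4. Replicate 1 also had a high share of mitochondrial transcripts, 1.71%, where all libraries ran from 0.765% to 1.78%. Called results that use this library are therefore given with and without it, except the Bub1b change against nocodazole and the Bub1b interaction. Summed levels of 8 sensory neuron markers ran from 5951 to 7118 CPM (counts scaled to a common library size) in nocodazole libraries, against 8458 to 9391 CPM in DMSO libraries. They ran from 5970 to 7656 CPM in inhibitor plus nocodazole libraries, against 6722 to 8205 CPM in inhibitor libraries, so all 3 treated groups lay below DMSO. Tubb3, a tubulin gene among these markers, ran from 766 to 1184 CPM in nocodazole libraries, against 2844 to 3287 CPM in DMSO libraries. It ran from 945 to 1876 CPM in inhibitor plus nocodazole libraries, against 2005 to 2795 CPM in inhibitor libraries, so the sums carry its change. Its log2 change after nocodazole was -1.60, the lowest of the 8, whose median was -0.22 (7 negative, 1 positive). Summed levels of 9 Schwann cell and satellite glia markers ran from 33.6 to 85.3 CPM in nocodazole libraries, against 88.6 to 107.5 CPM in DMSO libraries. They ran from 26.9 to 87.6 CPM in inhibitor plus nocodazole libraries, against 42.3 to 94.3 CPM in inhibitor libraries. The part of these markers in the kinesin values was not tested. Sums of 8 fibroblast and 5 macrophage markers were at or below 10.15 CPM and 5.41 CPM in any library. In such bulk RNA, fewer cells of a type and less RNA per cell cannot be told apart.

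Promoter letters are shown for 4 members: Kif26b, Kif26a and Kif11, which were lower after nocodazole, and Kif23, which was higher. Kif21b and Kifc3 were also called after nocodazole, but the promoter table used here has no entry for them. Each is the 250 bases before the annotated start of the gene, 5′ to 3′ on the gene's own strand, from the RefSeq promoter table for build GRCm38.p6. Capitals mark matches, on either strand, to the motifs searched that were present: the cell cycle homology region CHR (TTTGAA) and the CCAAT box (CCAAT). The windows are chr1:178528875-178529124 on the + strand for Kif26b, chr12:112145958-112146207 on the + strand for Kif26a, chr19:37376132-37376381 on the + strand for Kif11 and chr9:61946800-61947049 on the - strand for Kif23.
Kif26b: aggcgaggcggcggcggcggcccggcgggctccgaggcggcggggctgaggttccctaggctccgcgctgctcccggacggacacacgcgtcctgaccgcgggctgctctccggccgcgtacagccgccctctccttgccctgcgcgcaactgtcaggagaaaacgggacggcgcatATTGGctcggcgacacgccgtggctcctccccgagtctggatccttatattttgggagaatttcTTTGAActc
Kif26a: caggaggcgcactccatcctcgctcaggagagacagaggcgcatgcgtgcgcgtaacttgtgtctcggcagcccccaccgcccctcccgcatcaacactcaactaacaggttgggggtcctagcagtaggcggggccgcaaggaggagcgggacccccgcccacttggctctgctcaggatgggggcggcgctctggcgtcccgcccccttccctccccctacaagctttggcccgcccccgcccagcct
Kif11: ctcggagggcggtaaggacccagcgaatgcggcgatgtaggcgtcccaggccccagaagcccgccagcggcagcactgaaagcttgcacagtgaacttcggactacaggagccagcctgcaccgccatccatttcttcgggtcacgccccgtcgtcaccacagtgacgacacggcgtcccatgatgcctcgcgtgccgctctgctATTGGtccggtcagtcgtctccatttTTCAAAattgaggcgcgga
Kif23: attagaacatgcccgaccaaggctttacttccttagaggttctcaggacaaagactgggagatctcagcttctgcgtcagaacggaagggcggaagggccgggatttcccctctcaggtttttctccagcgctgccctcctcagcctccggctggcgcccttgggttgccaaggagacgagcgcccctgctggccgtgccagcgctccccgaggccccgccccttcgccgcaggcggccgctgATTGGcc

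The Kif26b and Kif11 windows each held 1 CHR and 1 CCAAT match, the Kif23 window held 1 CCAAT match and the Kif26a window held none. Of 32851 promoter windows of this length in the table, 16% held a CHR match and 33.8% a CCAAT match. No match to AP-1 (TGANTCA), the CRE-like motif (TGACGT) or E2F (TTCCCGC) was present in these 4 windows. Across all windows these motifs were found in 6.75%, 6.47% and 3.82%. The matches describe letters and nothing about binding.

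Levels of the members were compared as CPM per kilobase of annotated exon, so that long and short genes stand on 1 scale. In DMSO libraries the order was led by Kif1a, the carrier of synaptic and dense core vesicle precursors, at 320.5 ± 20.1 (mean ± SD, n = 4). Next came Kif5a, a neuronal heavy chain of conventional kinesin, at 246.5 ± 8.35, Kif5c, its close relative, at 148 ± 4.74, and Kif1b, a carrier of mitochondria and synaptic vesicle precursors, at 132 ± 4.68. Kif21a, which slows microtubule growth, followed at 96.1 ± 1.26. The kinesin-2 subunits Kif3c and Kif3a stood at 71.0 ± 4.18 and 53.6 ± 1.28 CPM per kilobase.

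Kifc2, Kif3b and Kif26b were neighbours in this order and their library ranges overlapped (38.6 to 43.8, 36.0 to 41.4 and 35.2 to 38.3 CPM per kilobase). The microtubule-depolymerizing kinesin Kif2a (22.1 to 23.1) and Kif5b, the conventional kinesin heavy chain made in most cell types (20.6 to 22.0), came next and their ranges lay just apart. Mitotic members were far lower: Kif20a was the highest of them at 1.08 ± 0.123 CPM per kilobase in DMSO libraries, and Kif23 was at 0.0196 ± 0.0123. The opposite-strand gene Cdc23 overlaps 29.3% of the exon bases of Kif20a. In DMSO libraries Cdc23 lay at 55.0 to 58.3 CPM, against 4.28 to 5.46 CPM for Kif20a. The strand setting of the counting is not given, so the rank of Kif20a and the mitotic share below are uncertain. Together the 13 transport kinesins made up 84.0%, 85.0%, 84.1% and 83.5% of the per-length kinesin signal in inhibitor plus nocodazole, nocodazole, inhibitor and DMSO libraries (group means). The mitotic members made up 0.335%, 0.344%, 0.34% and 0.288%.

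**Figure D1:**
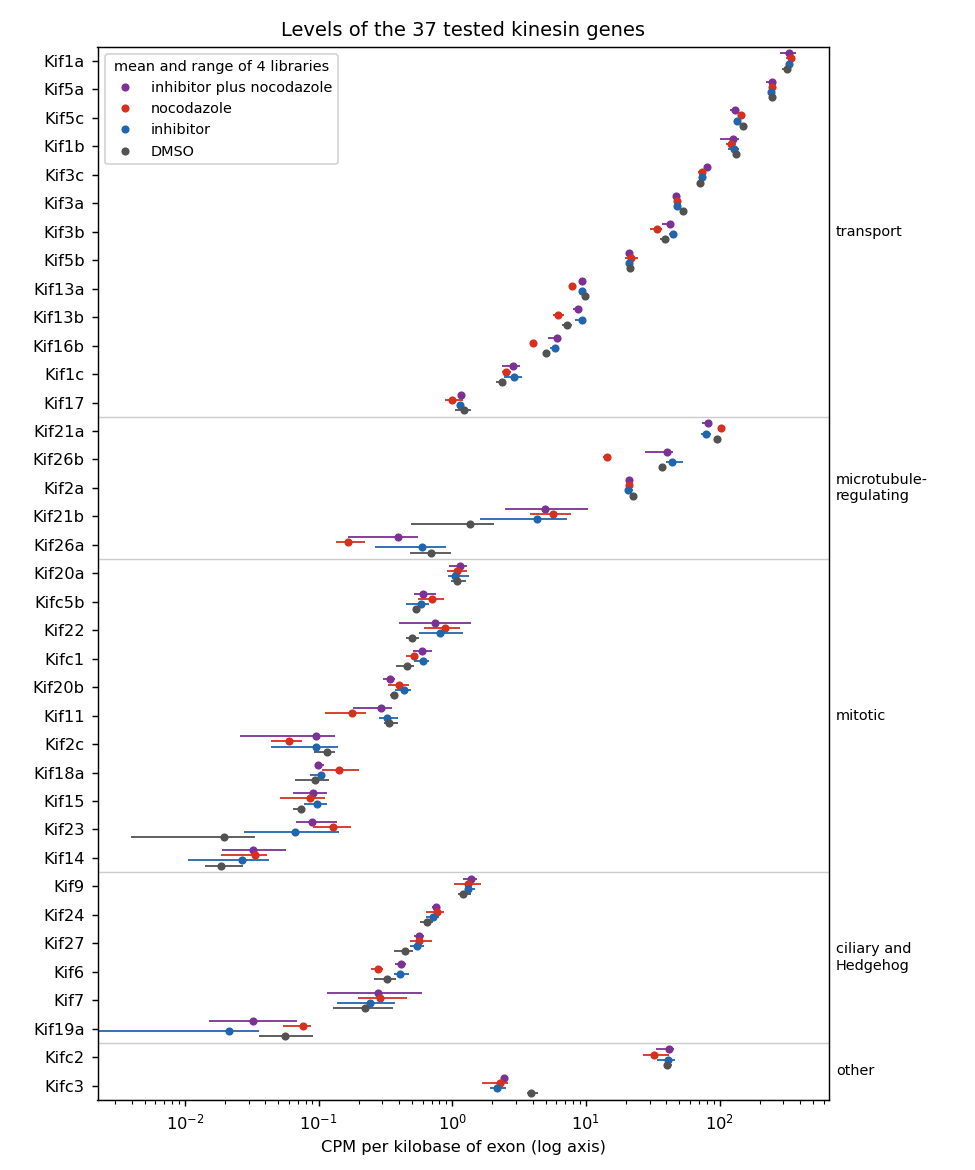
Level of each tested kinesin gene in CPM per kilobase of exon (log axis), by role; points are group means and lines the range of 4 libraries, and the line of Kif19a in inhibitor libraries runs to 0. Transport kinesins led by Kif1a at 320.5 in DMSO libraries fill the high end, and mitotic kinesins lie near or below 1.

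After nocodazole without the inhibitor, 3 of the 37 tested kinesin genes rose and 9 fell (edgeR quasi-likelihood test, Benjamini-Hochberg adjusted p under 0.05), which is 32.4%, where 37.5% of all tested genes were called (18.6% rose and 19.0% fell). Those that rose were Kif23, Kif21b and Kif18a. Those that fell were the transport kinesins Kif13a, Kif13b, Kif16b, Kif3a and Kif3b, the microtubule regulators Kif26a and Kif26b, the spindle motor Kif11 and the minus-end motor Kifc3. The median log2 change was 0.02 over the 37 kinesins, against 0.00717 over all genes. The share of members called was near that of all genes.

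With the inhibitor present, nocodazole left no kinesin gene called in either direction, where 0.0835% of all tested genes were called (0.0783% rose and 0.00522% fell). At an unadjusted p under 0.05 there was 1 kinesin, Kif20b. DESeq2 and limma-voom also called 0 kinesins. Leaving out inhibitor plus nocodazole replicate 1 also gave 0 kinesins, with 88 genes called in all. The difference between these responses, the interaction (the change by nocodazole under inhibitor less the change by nocodazole under DMSO), was called for 5 kinesins. Kif13a, Kif16b, Kif26b and Kifc3 had positive interactions and Kif23 a negative one, which is 13.5% of the members, where 18.7% of all genes were called (9.52% positive and 9.20% negative).

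The inhibitor plus nocodazole group was also set directly against the nocodazole group. In that comparison 9 kinesins rose and 2 fell, 29.7% of the members, where 33.9% of all genes were called (17.7% rose and 16.2% fell). The inhibitor alone against DMSO gave 3 that rose and 3 that fell, 16.2%, where 13.0% of all genes were called (5.78% rose and 7.24% fell). Several of these comparisons share libraries (DMSO in both single treatments, nocodazole in the comparison with and without inhibitor), so their values stand side by side below and no agreement between them is counted. Without inhibitor plus nocodazole replicate 1, the interaction was called for 9 kinesins, the 5 above and Kif11, Kif21b, Kif22 and Kif26a. Leaving it out of the fit also added Kif16b, Kif1c and Kif26b to the calls after the inhibitor alone, which were then 9 instead of 6.

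**Figure D2:**
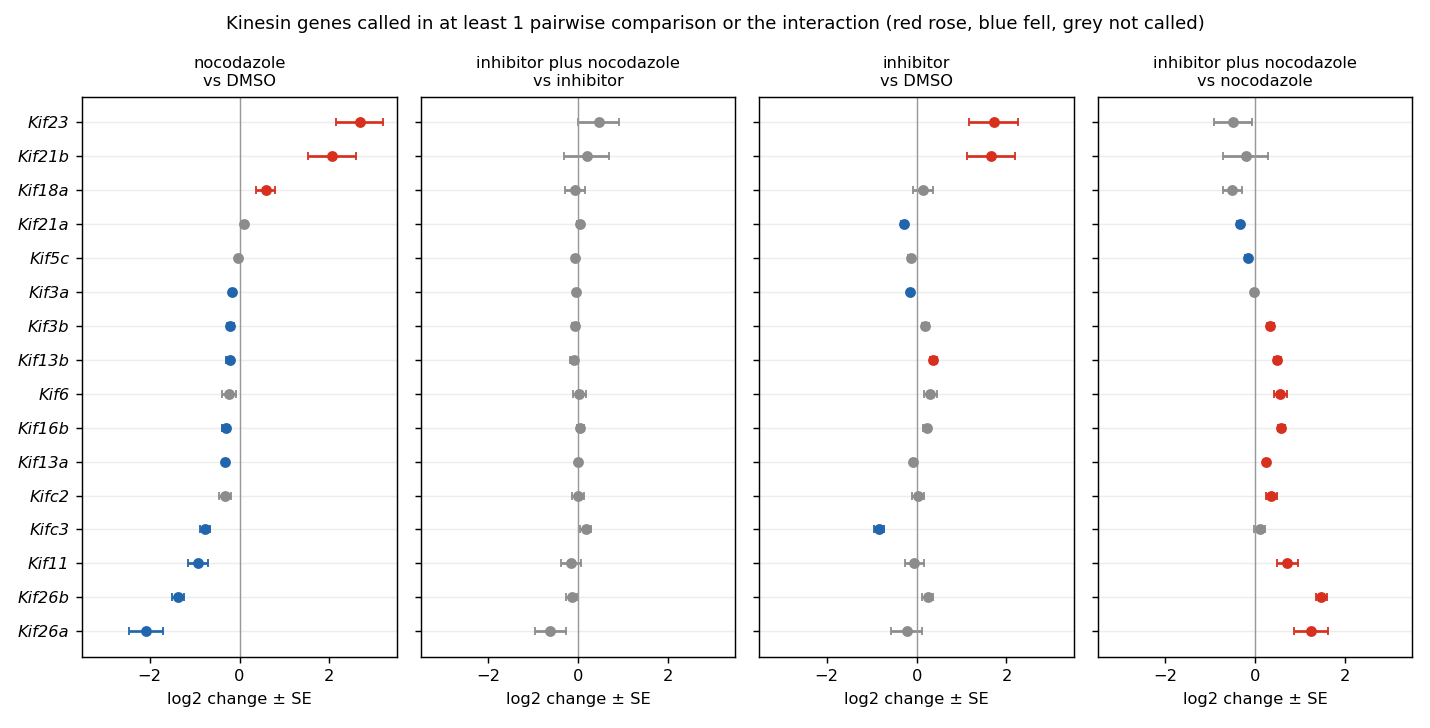
Log2 change ± SE of the 16 kinesin genes called in at least 1 comparison, in 4 comparisons (panels); red rose, blue fell and grey was not called at an edgeR adjusted p of 0.05. The panel of inhibitor plus nocodazole against inhibitor holds grey points only, while that of nocodazole against DMSO spans -2.08 (Kif26a) to 2.67 (Kif23).

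Among the 13 transport kinesins, the most abundant axonal motors Kif1a, Kif5a, Kif5c and Kif1b were not called after nocodazole, and 5 other members fell by 0.31 or less on the log2 scale. None of the 13 rose after nocodazole. The median log2 change of the transport kinesins was -0.12 after nocodazole and -0.01 after nocodazole with the inhibitor present. It was 0.11 for inhibitor plus nocodazole against nocodazole, where 4 rose and 1 fell.

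The vesicle carrier Kif1a lay at 3222, 2949, 3314 and 3320 CPM in nocodazole libraries, against 3179, 3059, 2734 and 2989 CPM in DMSO libraries. The groups overlapped. Its log2 change was 0.10, with a 95% interval of -0.07 to 0.27 (edgeR adjusted p = 0.35). In inhibitor plus nocodazole libraries Kif1a lay at 2641, 3448, 3257 and 2974 CPM, against 3276, 2925, 3043 and 3121 CPM in inhibitor libraries, also overlapping.

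Kif1b lay at 2020, 1956, 2232 and 2327 CPM in nocodazole libraries, against 2401, 2377, 2219 and 2302 CPM in DMSO libraries. Replicates 1 and 2 of nocodazole were below every DMSO library and the other two were within their range. The log2 change was -0.12 (95% interval -0.32 to 0.07, edgeR adjusted p = 0.311). Its 4 inhibitor plus nocodazole values were 1787, 2452, 2419 and 2209 CPM, against 2468, 2050, 2160 and 2301 CPM with inhibitor alone.

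Kif5a, a motor for neurofilaments and other axonal cargo, lay at 1716, 1666, 1801 and 1744 CPM in nocodazole libraries, against 1774, 1712, 1645 and 1762 CPM in DMSO libraries. The libraries of both groups were interleaved. Its log2 change was 0.01, with a 95% interval of -0.12 to 0.13 (edgeR adjusted p = 0.936). With inhibitor plus nocodazole it was at 1550, 1780, 1815 and 1720 CPM, against 1783, 1648, 1655 and 1694 CPM with inhibitor alone, and replicate 1 was again the lowest of its group.

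For Kif5b the values were 177, 196, 162 and 157 CPM in nocodazole libraries, against 176, 170, 165 and 173 CPM in DMSO libraries. The nocodazole range enclosed the DMSO range, and the log2 change was 0.02 (95% interval -0.11 to 0.15, edgeR adjusted p = 0.839). Under inhibitor plus nocodazole it lay at 179.8, 160.4, 164 and 164 CPM, against 166, 174, 168 and 166 CPM in inhibitor libraries.

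Kif5c was the 1 conventional kinesin gene that was called in any comparison. It lay at 859.9, 951, 955 and 954 CPM in inhibitor plus nocodazole libraries, against 1034, 1016, 1066 and 1047 CPM in nocodazole libraries. All 4 were below every nocodazole library, and the log2 change was -0.16 ± 0.0527 (SE, edgeR adjusted p = 0.0248). Without replicate 1, the lowest, the change was -0.12 and was not called (edgeR adjusted p = 0.0648), nor was it without nocodazole replicate 3 (-0.16). Inhibitor libraries held 1033, 922, 949 and 970.3 CPM, against 1054, 1021, 1058 and 1103 CPM in DMSO libraries, with 1 library overlapping and an edgeR adjusted p of 0.115.

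Kif3a, the kinesin-2 subunit that also drives transport in cilia, lay at 172, 181, 168 and 169 CPM in nocodazole libraries, against 190, 190, 189 and 199 CPM in DMSO libraries. Every nocodazole library was below every DMSO library, and the log2 change was -0.16 ± 0.0469 (edgeR adjusted p = 0.0145). Inhibitor libraries held 183, 168, 165 and 178 CPM, also all below DMSO, with a change of -0.15 ± 0.0469 (edgeR adjusted p = 0.049). This last call was lost without any 1 of 7 libraries (inhibitor plus nocodazole 4, nocodazole 1, inhibitor 2 and 3, DMSO 2, 3 and 4), where the change was -0.16 to -0.12. The combined treatment gave 166, 163, 177 and 169 CPM in inhibitor plus nocodazole libraries, which overlapped both single treatments.

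Its partner subunit Kif3b ran from 170 to 208 CPM in nocodazole libraries, against 203 to 233 CPM in DMSO libraries, a change of -0.21 ± 0.0765 (edgeR adjusted p = 0.0394). That call was lost without any 1 of 5 libraries (nocodazole 3 and 4, DMSO 1, 2 and 4), where the change was -0.23 to -0.18. In inhibitor plus nocodazole libraries it ran from 210.2 to 255 CPM, above the nocodazole libraries, with a change of 0.34 ± 0.0765 against them (edgeR adjusted p = 0.00253), and 0.31 without replicate 1. Kif3c, the neuronal kinesin-2 subunit, was not called in any of the 4 pairwise comparisons, its largest value being 0.11 for inhibitor plus nocodazole against nocodazole.

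Kif16b, which moves early endosomes, gave the largest change among transport kinesins called in any pairwise comparison. It lay at 36.0, 38.8, 35 and 36.5 CPM in nocodazole libraries, against 47.9, 46.8, 43.7 and 43.1 CPM in DMSO libraries. The groups did not overlap, and the log2 change was -0.31 ± 0.0716 (edgeR adjusted p = 0.00271). After inhibitor plus nocodazole it lay at 47.1, 58.0, 58.5 and 56.3 CPM, against 57.2, 50.7, 49.1 and 54.6 CPM in inhibitor libraries. They overlapped the inhibitor libraries and were all above the nocodazole libraries, with a change of 0.59 ± 0.0716 against nocodazole (edgeR adjusted p = 9.79e-06) and an interaction of 0.37 ± 0.101 (edgeR adjusted p = 0.0192). Without inhibitor plus nocodazole replicate 1 these were 0.66 and 0.43, both called.

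Kif13a, a motor of endosomes and Golgi-derived vesicles, ran from 62.2 to 68.6 CPM in nocodazole libraries, against 76.7 to 82.0 CPM in DMSO libraries. Its change was -0.31 ± 0.0475 (edgeR adjusted p = 8.32e-05), and its interaction was 0.32 ± 0.067 (edgeR adjusted p = 0.00411), the same to 2 decimals without inhibitor plus nocodazole replicate 1. The change against nocodazole in inhibitor plus nocodazole libraries was 0.24 with and without that replicate (edgeR adjusted p of 9e-04 and 0.00149). Its inhibitor plus nocodazole libraries lay between 75.1 and 76.3 CPM, within the inhibitor range of 71.7 to 79.2 CPM. Kif13b, its close relative, ran from 73.8 to 89.1 CPM in nocodazole libraries, against 86.1 to 103.1 CPM in DMSO libraries, with a change of -0.22 ± 0.0731 (edgeR adjusted p = 0.0251). Without nocodazole replicate 1 or 2 or DMSO replicate 3 this was -0.20 to -0.17 and not called. Its inhibitor plus nocodazole libraries, at 104.7 to 120.6 CPM, were all above the nocodazole libraries (0.49 ± 0.0732, edgeR adjusted p = 6.63e-05, and 0.49 without replicate 1).

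Kif13b differed from Kif13a in being called after the inhibitor alone, at 108.2 to 130 CPM in inhibitor libraries, against 86.1 to 103.1 CPM in DMSO libraries. That change was 0.37 ± 0.0729 (edgeR adjusted p = 0.00386), while Kif13a had -0.08 (edgeR adjusted p = 0.296). The interaction of Kif13b was 0.12 ± 0.103 and was not called (edgeR adjusted p = 0.428). The vesicle motor Kif1c and the dendritic receptor carrier Kif17 were called in no comparison, with group means of 17.0 to 21.2 CPM and 4.56 to 5.58 CPM.

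**Figure D3:**
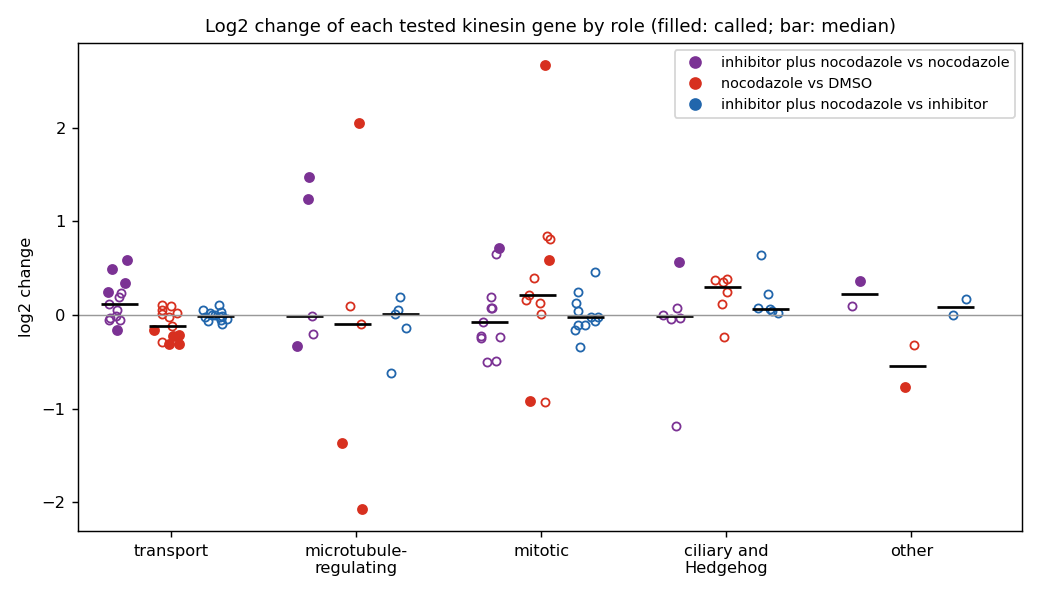
Log2 change of each tested kinesin gene, grouped by role; filled points were called at an edgeR adjusted p of 0.05, open points were not, and bars are medians. Nocodazole against DMSO spreads the microtubule-regulating and mitotic members from -2.08 to 2.67, and no point of inhibitor plus nocodazole against inhibitor is filled.

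Among the 5 microtubule-regulating and non-motile kinesins, the sister genes Kif26a and Kif26b fell and Kif21b rose after nocodazole, while Kif21a and Kif2a were not called. Kif26a and Kif26b proteins bind microtubules but do not walk on them. Kif26a limits growth factor signalling in enteric neurons, and Kif26b acts in cell adhesion and in Wnt5a-Ror signalling.

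Kif26b (ENSMUSG00000026494) lay at 197, 205, 225 and 220 CPM in nocodazole libraries, against 556, 563, 518 and 548 CPM in DMSO libraries. Every nocodazole library was far below every DMSO library. The log2 change was -1.37 ± 0.125, a fold of 0.388 (edgeR adjusted p = 5.89e-07).

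In inhibitor plus nocodazole libraries there were 406.8, 659, 630.1 and 659 CPM of Kif26b, against 776, 584, 611 and 629.7 CPM in inhibitor libraries. Replicates 2 to 4 lay within the inhibitor range and replicate 1 lay below it, between the nocodazole and DMSO libraries. The change was -0.14 (95% interval -0.40 to 0.12, edgeR adjusted p = 0.99), and -0.00 without replicate 1. Against nocodazole, the change was 1.47 ± 0.125 (edgeR adjusted p = 2.5e-07), or 1.62 without replicate 1. The interaction was 1.22 ± 0.174 (edgeR adjusted p = 0.000223), and 1.37 without replicate 1. The inhibitor libraries were all above the DMSO libraries, with a change of 0.25 that was not called (edgeR adjusted p = 0.183).

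An antisense gene, Gm16564, overlaps 909 exon bases of Kif26b on the other strand (6.19% of its exons), and its log2 change after nocodazole was -1.34. Counts given to Gm16564 were few, at 0.907 to 1.37 CPM in nocodazole libraries and 2.20 to 3.48 CPM in DMSO libraries. The strand setting of the counting is not given, so reads of the 2 genes in that stretch cannot be told apart.

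Kif26a (ENSMUSG00000021294), at 0.696 CPM per kilobase in DMSO libraries against 37.2 for its sister, lay at 0.938, 1.02, 1.09 and 1.53 CPM in nocodazole libraries, against 4.57, 6.80, 3.34 and 4.56 CPM in DMSO libraries. The groups did not overlap, and the change was -2.08 ± 0.378, a fold of 0.237 (edgeR adjusted p = 0.000419). With inhibitor plus nocodazole its values were 1.15, 3.85, 3.29 and 2.57 CPM, against 4.71, 1.83, 3.79 and 6.18 CPM in inhibitor libraries. Replicate 1 of inhibitor plus nocodazole was within the nocodazole range and the other three were above it. The change against nocodazole was 1.24 ± 0.381 (edgeR adjusted p = 0.0184), and was 1.014 to 1.157 and not called without inhibitor plus nocodazole replicate 2 or 3 or nocodazole replicate 1, but 1.505 and called without inhibitor plus nocodazole replicate 1 (edgeR adjusted p = 0.00227). The interaction was 1.46 ± 0.514 and was not called (edgeR adjusted p = 0.0578), but was 1.72 and called without replicate 1 (edgeR adjusted p = 0.00946).

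Kif21b (ENSMUSG00000041642), a neuronal motor that limits microtubule growth, lay at 79.6, 93.7, 56.6 and 46.7 CPM in nocodazole libraries, against 16.5, 5.95, 25.1 and 19.1 CPM in DMSO libraries. The lowest nocodazole library was above the highest DMSO library, and the change was 2.05 ± 0.532, a fold of 4.14 (edgeR adjusted p = 0.00619). Inhibitor libraries held 29.9, 88.4, 72.5 and 19.6 CPM, with 2 libraries high and 1 within the DMSO range. The change against DMSO was 1.65 ± 0.528 (edgeR adjusted p = 0.049), and without inhibitor replicate 2 it was 1.28 and not called (edgeR adjusted p = 0.171). The call was lost in all without any 1 of 12 libraries, every one except inhibitor plus nocodazole 1 and 2 and inhibitor 1 and 4, with changes of 1.28 to 1.93.

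Inhibitor plus nocodazole libraries held 125, 30.0, 31.8 and 51.9 CPM of Kif21b, with replicate 1 the highest of all 16 libraries. The interaction was -1.86 ± 0.727 and was not called (edgeR adjusted p = 0.0848), but was -2.51 and called without that replicate (edgeR adjusted p = 0.00902).

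Kif21a, the more abundant relative, ran from 627 to 697.5 CPM in nocodazole libraries, against 613 to 631 CPM in DMSO libraries, and was not called. It fell with the inhibitor: 474 to 563 CPM in inhibitor libraries, against 613 to 631 CPM in DMSO libraries, with a change of -0.28 ± 0.066 (edgeR adjusted p = 0.011). Against nocodazole, inhibitor plus nocodazole gave -0.33 ± 0.066 (edgeR adjusted p = 0.00106), and -0.28 without inhibitor plus nocodazole replicate 1 (edgeR adjusted p = 0.00251). Its interaction was -0.04 and was not called (edgeR adjusted p = 0.769).

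Kif2a, which removes tubulin from microtubule ends and prunes axon branches, lay at 138, 139, 129 and 129.9 CPM in nocodazole libraries, against 141, 148, 143 and 143 CPM in DMSO libraries. The nocodazole libraries were all lower, but the change of -0.10 (95% interval -0.21 to 0.01) was not called (edgeR adjusted p = 0.143). Inhibitor plus nocodazole libraries held 127, 130.3, 137 and 139 CPM, against 135, 124, 125 and 143 CPM in inhibitor libraries, and these overlapped. Opposite-strand genes overlap 19.2% of the exon bases of Kif2a (Dimt1), 29.3% of those of Kif20a (Cdc23) and 35.3% of those of Kif3c (1110002L01Rik), so their counts carry the same uncertainty.

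**Figure D4:**
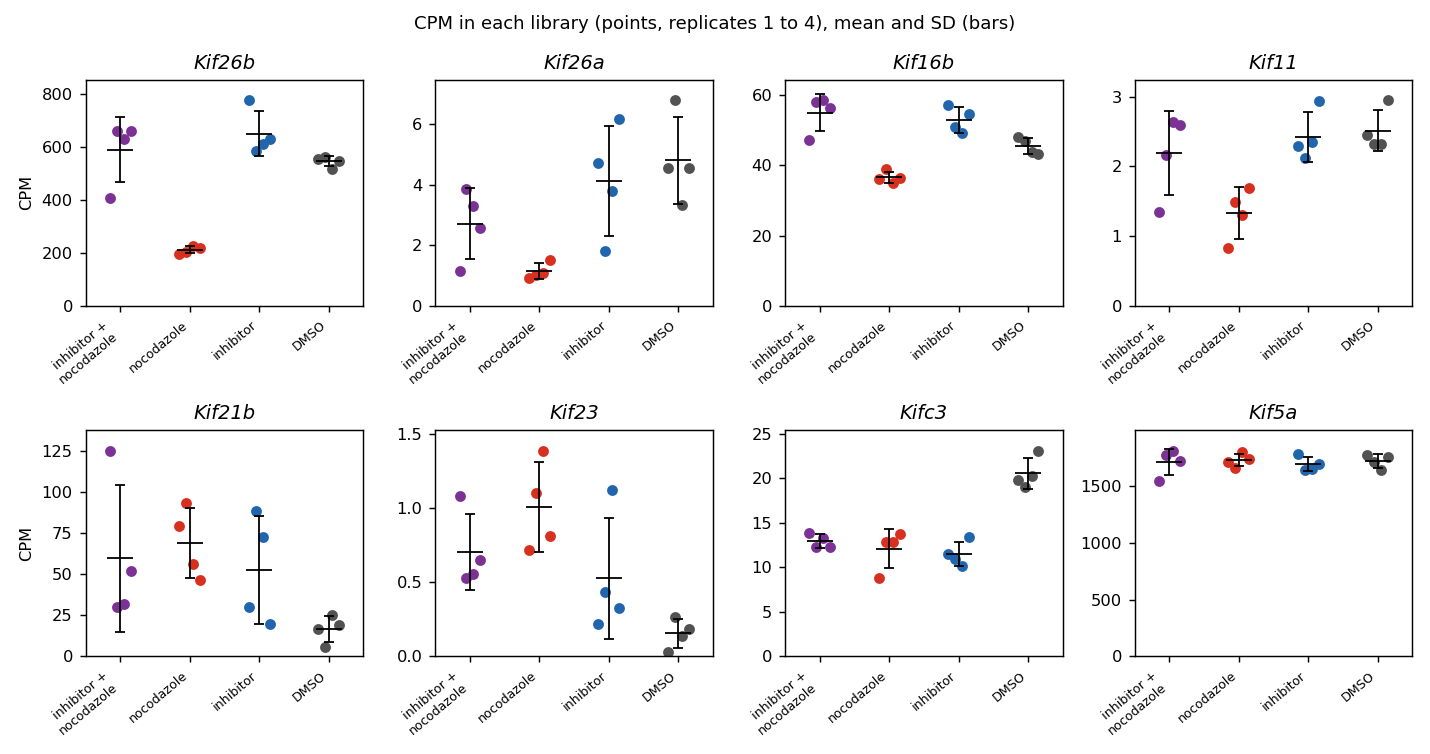
CPM of 8 kinesin genes in each library (points, replicates 1 to 4 from left to right), with the group mean and SD (bars). Kif26b lies at 197 to 225 CPM in the nocodazole libraries and at 518 to 563 CPM in the DMSO libraries, while Kif5a overlaps between all groups.

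Of the 11 tested mitotic kinesins, 2 rose, 1 fell and 8 were not called after nocodazole (27.3% called, where 37.5% of all genes were). Their median log2 change was 0.22. All were low, and the highest value in any library was 6.75 CPM (Kif22, in the inhibitor plus nocodazole group).

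Kif11, the motor that pushes spindle poles apart and restrains microtubule sliding in axons, lay at 0.828, 1.496, 1.3 and 1.69 CPM in nocodazole libraries, against 2.46, 2.31, 2.33 and 2.95 CPM in DMSO libraries. The groups did not overlap, and the change was -0.92 ± 0.229 (edgeR adjusted p = 0.00467) on 30 to 52 counts in nocodazole libraries and 79 to 101 counts in DMSO libraries. When inhibitor preceded nocodazole, Kif11 lay at 1.34, 2.16, 2.64 and 2.6 CPM in inhibitor plus nocodazole libraries, against 2.29, 2.12, 2.35 and 2.94 CPM in inhibitor libraries. Replicate 1 was within the nocodazole range and the other three were above it, with a change of 0.72 ± 0.23 against nocodazole (edgeR adjusted p = 0.0233). Without inhibitor plus nocodazole replicate 3 or 4 or nocodazole replicate 1 or 3 that change was 0.54 to 0.70 and not called, and without inhibitor plus nocodazole replicate 1 it was 0.90 and called (edgeR adjusted p = 0.00272). The interaction of 0.77 ± 0.318 was not called (edgeR adjusted p = 0.104), and was 0.95 and called without replicate 1 (edgeR adjusted p = 0.0196).

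Kif23, the motor subunit of centralspindlin, which bundles midzone microtubules in dividing cells, had the largest change of any kinesin after nocodazole. It lay at 0.717, 1.11, 1.39 and 0.813 CPM in nocodazole libraries, against 0.0311, 0.264, 0.138 and 0.186 CPM in DMSO libraries. The counts behind these values were 26 to 46 in nocodazole libraries and 1 to 9 in DMSO libraries, where the mean was below the level the low-count filter asks for. All nocodazole libraries were above all DMSO libraries, and the change was 2.67 ± 0.515 (edgeR adjusted p = 0.000673).

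For inhibitor plus nocodazole libraries the values were 1.08, 0.532, 0.558 and 0.65 CPM of Kif23, against 0.22, 0.436, 1.13 and 0.329 CPM in inhibitor libraries. Inhibitor replicate 3 was above all 4 inhibitor plus nocodazole libraries. The interaction was -2.21 ± 0.691 (edgeR adjusted p = 0.0345), and -2.50 without inhibitor plus nocodazole replicate 1 (edgeR adjusted p = 0.0145). Without any 1 of 9 other libraries (inhibitor plus nocodazole 2, 3 and 4, nocodazole 2 and 3, inhibitor 3, DMSO 1, 3 and 4) it was -2.30 to -1.55 and not called. The inhibitor alone gave 1.72 ± 0.543 against DMSO (edgeR adjusted p = 0.0465), which was 1.06 and not called without inhibitor replicate 3 (edgeR adjusted p = 0.195). That call was lost without any 1 of 12 libraries, every one except inhibitor plus nocodazole 1, nocodazole 3 and inhibitor 1 and 4, with changes of 1.06 to 2.08.

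Kif18a, which aligns chromosomes by slowing microtubule plus ends, lay at 1.05, 1.26, 1.3 and 1.98 CPM in nocodazole libraries, against 0.809, 1.05, 1.17 and 0.651 CPM in DMSO libraries. The ranges overlapped and replicate 4 of nocodazole stood highest. The change of 0.58 ± 0.218 was just under the threshold (edgeR adjusted p = 0.0454) and was 0.35 and not called without that library (edgeR adjusted p = 0.212). It was lost without any 1 of 13 libraries, every one except inhibitor plus nocodazole 1, nocodazole 1 and DMSO 3, with changes of 0.35 to 0.65. With inhibitor plus nocodazole it lay at 1.08, 0.971, 0.931 and 0.933 CPM, against 1.07, 1.07, 0.845 and 1.09 CPM with inhibitor alone.

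Kif20b, a cytokinesis motor, lay at 2.29, 3.08, 2.51 and 3.32 CPM in nocodazole libraries, against 2.74, 2.72, 2.37 and 2.39 CPM in DMSO libraries, and was not called (0.13, edgeR adjusted p = 0.503). In inhibitor plus nocodazole libraries it lay at 2.38, 2.51, 2.58 and 2.12 CPM, against 3.19, 2.59, 2.94 and 3.39 CPM in inhibitor libraries. These groups just failed to overlap, and the change of -0.34 ± 0.143 was not called (edgeR adjusted p = 0.756).

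The other tested mitotic members were called in no comparison. Among them the chromosome-binding Kif22, the cytokinesis motor Kif14 and the centromere depolymerase Kif2c had nocodazole values of 0.82, 0.85 and -0.93 (edgeR adjusted p of 0.0633, 0.14 and 0.0877). Without inhibitor plus nocodazole replicate 1, Kif22 was called for nocodazole, for inhibitor plus nocodazole against nocodazole and for the interaction, which was -1.42 (edgeR adjusted p = 0.00865). Kifc1 and Kifc5b are near-identical copies, so the split of reads between them is uncertain. Kif4, the chromosome-arm motor, had 0 to 16 counts per library and was not tested, and neither were Kif18b, Kif2b, Kif12 and Kif28, each at 0 to 5 counts.

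The mitotic members can be set beside a list of mitosis genes that the naming pattern does not match. Of 19 tested genes on that list, 6 rose and 1 fell after nocodazole, 36.8%, where 37.5% of all genes were called. With the inhibitor present 0 were called (edgeR adjusted p under 0.05), where 0.0835% of all genes were. Between inhibitor plus nocodazole and nocodazole 1 rose and 3 fell, 21.1%, where 33.9% of all genes were called, and the counts were also 1 and 3 without inhibitor plus nocodazole replicate 1. The proliferation marker Mki67 had a nocodazole change of 0.52 (edgeR adjusted p = 0.225), the DNA-untangling enzyme Top2a one of 0.24 (edgeR adjusted p = 0.663) and the kinetochore kinesin Cenpe one of 0.11 (edgeR adjusted p = 0.726). Summed levels of 8 fibroblast markers ran from 6.70 to 10.15 CPM in nocodazole libraries, against 2.90 to 7.14 CPM in DMSO libraries, and those of 5 macrophage markers from 4.19 to 5.41 CPM, against 2.26 to 2.79 CPM. In inhibitor plus nocodazole libraries the fibroblast sum ran from 2.42 to 3.70 CPM, against 2.70 to 6.34 CPM in inhibitor libraries. The macrophage sum ran from 1.865 to 3.03 CPM, against 1.62 to 2.88 CPM. The part of the fibroblast and macrophage markers in the kinesin values was not tested.

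Kif21b, Kif23 and Kif26a were set beside the share of mitochondrial transcripts, which varied within groups. That share was 1.71% in inhibitor plus nocodazole replicate 1 and 1.39% and 1.78% in inhibitor replicates 2 and 3, against 0.865% to 1.09% in the other libraries of those groups. These 3 libraries had 125, 88.4 and 72.5 CPM of Kif21b and 1.08, 0.436 and 1.13 CPM of Kif23, the upper values of their groups, and 1.15, 1.83 and 3.79 CPM of Kif26a, the lower ones. Nocodazole replicates 1 and 2 had 1.36% and 1.5%, replicates 3 and 4 had 0.875% and 0.977%, and DMSO libraries had 0.765% to 1.07%. Within the nocodazole group, replicates 1 and 2 were the upper values of Kif21b (79.6 and 93.7 CPM) and the lower ones of Kif26a (0.938 and 1.02 CPM). For Kif23 they were not: replicate 1 was the lowest of the group at 0.717 CPM and replicate 2 lay second at 1.11 CPM. Kif22 was added after its values were seen. It had 6.75, 5.9 and 4.29 CPM in the 3 libraries named first, also the upper values of their groups. In nocodazole replicates 1, 2, 3 and 4 Kif22 lay at 5.57, 4.88, 3.87 and 3.02 CPM. The part of the mitochondrial share in these values was not tested.

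**Figure D5:**
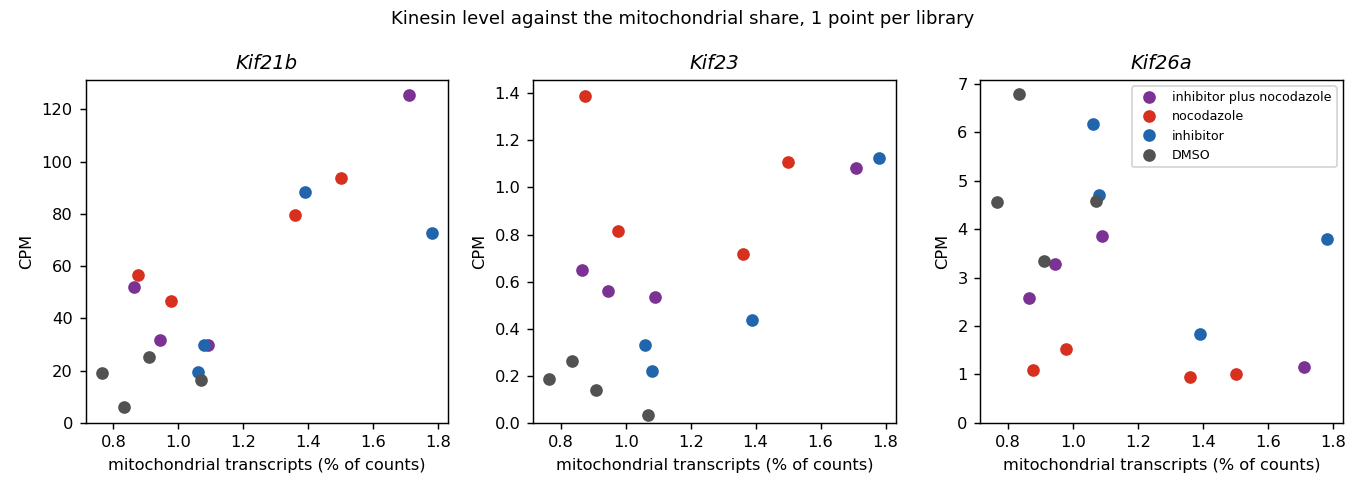
CPM of Kif21b, Kif23 and Kif26a against the share of counts from mitochondrial transcripts (%), 1 point per library. Inhibitor plus nocodazole replicate 1, at 1.71%, has the highest Kif21b (125 CPM), while all nocodazole libraries are above all DMSO libraries in Kif21b and Kif23.

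Of the 6 tested ciliary and Hedgehog kinesins, 0 were called after nocodazole at an adjusted p under 0.05, after the inhibitor or in the interaction. Kif6, a kinesin of motile cilia, was called in 1 comparison. It lay at 2.69, 2.66, 2.27 and 2.26 CPM in inhibitor plus nocodazole libraries, against 1.74, 1.64, 1.48 and 1.82 CPM in nocodazole libraries. The groups did not overlap, with a change of 0.56 ± 0.148 (edgeR adjusted p = 0.00713), and 0.52 without inhibitor plus nocodazole replicate 1 (edgeR adjusted p = 0.0189). Inhibitor libraries held 2.37, 2.85, 2.22 and 2.28 CPM, against 2.27, 2.11, 1.57 and 1.92 CPM in DMSO libraries. The Hedgehog regulator Kif7, Kif9, Kif24, Kif27 and the cilium-length motor Kif19a had group means of 6.16 CPM or below.

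The 2 tested members with the motor at the C-terminal end that are not mitotic were Kifc3 and Kifc2. Kifc3 (ENSMUSG00000031788), a minus-end motor found at cell junctions, was lower after either treatment. It lay at 8.85, 12.9, 12.8 and 13.8 CPM in nocodazole libraries, against 19.8, 19.0, 20.2 and 23.1 CPM in DMSO libraries, with no overlap and a change of -0.77 ± 0.12 (edgeR adjusted p = 0.00011). Inhibitor libraries held 11.5, 10.9, 10.2 and 13.4 CPM, also below every DMSO library, with a change of -0.84 ± 0.12 (edgeR adjusted p = 0.000423).

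Inhibitor plus nocodazole libraries held 13.9, 12.3, 13.3 and 12.3 CPM of Kifc3. They overlapped both single treatments, and the changes were 0.17 against inhibitor (95% interval -0.09 to 0.42) and 0.10 against nocodazole (95% interval -0.16 to 0.35). The interaction was 0.94 ± 0.17 (edgeR adjusted p = 0.00144), and 0.90 without replicate 1 (edgeR adjusted p = 0.0016).

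Kifc2, a neuronal C-terminal motor, ran from 131.4 to 180.1 CPM in inhibitor plus nocodazole libraries, against 105 to 165 CPM in nocodazole libraries. It was called there with a change of 0.36 ± 0.127 (edgeR adjusted p = 0.0386). That call was lost without any 1 of 7 libraries (inhibitor plus nocodazole 2, 3 and 4, nocodazole 1, 2 and 4, DMSO 1), where the change was 0.28 to 0.35, but was 0.45 and called without inhibitor plus nocodazole replicate 1 (edgeR adjusted p = 0.00778). Its nocodazole change of -0.32 was not called (edgeR adjusted p = 0.057), though it was without that same library (-0.32, edgeR adjusted p = 0.0318).

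The partners of kinesins, a list of light chains, cargo adaptors and regulators, had 6 of 31 genes that rose and 8 that fell after nocodazole, 45.2%, where 37.5% of all genes were called. With the inhibitor present 0 were called (edgeR adjusted p under 0.05), where 0.0835% of all genes were. After the inhibitor alone 0 rose and 5 fell, 16.1%, where 13.0% of all genes were called. Between inhibitor plus nocodazole and nocodazole 6 rose and 7 fell, 41.9%, where 33.9% of all genes were called, and 6 and 8 did without inhibitor plus nocodazole replicate 1. The interaction was called for 6, 19.4%, where 18.7% of all genes were called, and for 8 (5 positive, 3 negative) without that library.

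Kif1bp (ENSMUSG00000036955), whose protein binds the motor domain of a subset of kinesins, lay at 68.5, 65.8, 72 and 68.2 CPM in nocodazole libraries, against 79.7, 84.3, 87.8 and 93.4 CPM in DMSO libraries. The groups did not overlap, and the change was -0.33 ± 0.0682 (edgeR adjusted p = 0.00117). Its interaction was 0.35 ± 0.0964 (edgeR adjusted p = 0.0197) and 0.40 without inhibitor plus nocodazole replicate 1, with 68.5, 72.0, 80.3 and 82.2 CPM in inhibitor plus nocodazole libraries, against 80.6, 70.6, 70.8 and 77.6 CPM in inhibitor libraries.

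The largest rise among partners after nocodazole was in Plekhm1, an adaptor of late endosomes and lysosomes, at 0.90 ± 0.103 (edgeR adjusted p = 5.49e-06). The largest fall was in Map7, which recruits conventional kinesin to microtubules, at -0.85 ± 0.133 (edgeR adjusted p = 0.00011). The liprin genes Ppfia2 and Ppfia4, scaffolds of presynaptic cargo that bind Kif1a, moved in opposite directions, at 0.46 and -0.49 (edgeR adjusted p of 4.75e-05 and 2.66e-05). Falls were also called for Klc3, a kinesin light chain (-0.54, edgeR adjusted p = 0.0487), and Mapk8ip2, a JNK scaffold carried by kinesin (-0.42, edgeR adjusted p = 9.46e-05). Sybu, which links syntaxin cargo to Kif5b, rose by 0.36 (edgeR adjusted p = 0.00446).

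In inhibitor plus nocodazole against nocodazole, Ppfia2 fell by 0.79 (edgeR adjusted p = 2.16e-07) and Map7 rose by 0.54 (edgeR adjusted p = 0.00467). Plekhm1, Map7d1 and Plekhm2 had changes of -0.36, -0.38 and -0.30, and Trak1, a mitochondrial adaptor of kinesin, had -0.29 (each with an edgeR adjusted p under 0.05). Rhot2, a mitochondrial anchor for such adaptors, and Ppfia4 had 0.28 and 0.26. The interaction was 0.71 for Map7 (edgeR adjusted p = 0.0147), -0.54 for Plekhm1 (edgeR adjusted p = 0.0167) and -0.39 for Ppfia2 (edgeR adjusted p = 0.00873). Without inhibitor plus nocodazole replicate 1 these 3 were 0.86, -0.59 and -0.43. Against nocodazole, without that library, the changes were -0.82 for Ppfia2, 0.69 for Map7, -0.41 for Plekhm1, -0.34 for Map7d1, -0.40 for Plekhm2, -0.27 for Trak1, 0.29 for Rhot2 and 0.33 for Ppfia4, all called.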

How the data were processed

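The values are raw counts, which the authors deposited as whole numbers for each Ensembl gene in 16 libraries. Per the submitters' processing notes, STAR, Salmon and the build GRCm39 were used, with no versions or roles, so strand settings and the way shared reads were assigned are not given in the sources used here. Symbols came from GENCODE M21 and matched 52080 of 55356 identifiers (94.1%). Exon lengths came from the same annotation, which is of another build (GRCm38). No column was left unassigned.

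Counts were analysed with edgeR 4.0.16 in R 4.3.3: filterByExpr (minimum count 10), TMM scaling (factors 0.9595 to 1.064), 1 mean per group over all 16 libraries, quasi-likelihood tests of 5 contrasts, and Benjamini-Hochberg adjustment over 19156 genes, with 0.05 as the threshold. A member with low counts in 1 group can pass the filter through another. SE and 95% intervals derive from the test. CPM use TMM-scaled library sizes. DESeq2 1.42.0 and limma 3.58.1 (voom) were alternatives, as were other filters, a replicate block and leaving out each library. Replicates were compared by chi-square, which was 7.52 to 45.9 per degree of freedom for the 24 same-group pairs, so no library repeated another. The procedure was also run on simulated counts, in which no library stood apart from its group by design, and the outcome is not given here.

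The members and gene lists were chosen with earlier results of these data known, and no list was tested. Values per library are given for kinesins called in any of the 5 contrasts with an absolute log2 change of at least 0.5, and for Kif1a, Kif1b, Kif3a, Kif5a, Kif5b, Kif5c, Kif2a, Kif11, Kif23 and Kif20b. Kif1bp was added after its values were seen, as it matched the pattern. Of partners, up to 8 called genes of largest change are named in the nocodazole comparison and in that of inhibitor plus nocodazole with nocodazole.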

Additional observations from a re-analysis of the deposited data

Results flagged for a closer look

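In 4 of 68 groups of 4 libraries, 1 library stood far from the other three (Dixon's test at the 95% level, which chance passes in about 5% of groups). Inhibitor plus nocodazole replicate 1 was low for Kif26b, at 406.8 CPM, and for Kif5c, at 859.9 CPM. It is also the library with a mitochondrial share of 1.71% and a first component score of 10.4, and called kinesin results with and without it stand in the report. Inhibitor replicate 3 was low for Kif18a, at 0.8454 CPM, and DMSO replicate 4 was high for Kif3a, at 199 CPM.

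The nocodazole change with inhibitor differed from that without for 5 kinesins by the interaction term of the edgeR fit. Their interactions on the log2 scale were 0.316 for Kif13a, 0.365 for Kif16b, 1.223 for Kif26b, 0.936 for Kifc3 and -2.214 for Kif23.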

How the results depend on the processing

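Of 34 kinesin calls over the 5 contrasts, 23 (13 genes) held under every alternative run, 11 were lost under at least 1 and 0 changed sign. The number that rose with inhibitor against DMSO was 3, and was 5 with DESeq2, 5 with a filter of at least 1 CPM in 4 libraries and 1 with limma-voom. The number that fell in inhibitor plus nocodazole against nocodazole was 2, and was 1 with no filter and 1 when only the compared groups were fitted. Leaving out 1 library at a time gave 2 to 4 that rose and 8 to 10 that fell after nocodazole, 0 with inhibitor present, 1 to 6 and 2 to 4 after the inhibitor, 6 to 9 and 1 to 3 in inhibitor plus nocodazole against nocodazole, and 4 to 6 and 0 to 3 for the interaction. The cause of these moves was not tested. Kif18a after nocodazole was lost under 18 of 23 alternatives, and Kif21b and Kif23 after inhibitor under 14 of 23 and 15 of 22. Kif23 in the interaction was lost under 10 of 22. Kif3a after inhibitor was lost under 10 of 23 (edgeR adjusted p = 0.0979 with no filter), Kif3b after nocodazole under 7 and Kifc2 against nocodazole under 8. The uncalled nocodazole change of Kif5a was -0.01 with no filter and -0.03 to 0.024 over the left-out libraries, and that of Kif5b was -0.048 to 0.046. Same-numbered libraries did not deviate together: over 16 pairs the correlations of their deviations were -0.4 to 0.23, 4 were above 0.1 and 4 libraries correlated best with their own number. With the replicate number as a block, the number that fell in the interaction was 0 instead of 1 (Kif23, -2.07, edgeR adjusted p = 0.056). The block also ended the calls of Kif18a after nocodazole (0.57) and of Kif21b (1.60), Kif23 (1.67) and Kif3a (-0.15) after the inhibitor. Depth limits Kif23, Kif18a, Kif15, Kif14, Kif2c and Kif19a, which had at most 61 counts in any library.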

Other observations

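Racgap1, the partner of Kif23 in centralspindlin, was chosen after its values were seen. It lay at 8.66, 8.82, 6.80 and 7.61 CPM in nocodazole libraries, against 12.0, 11.5, 13.5 and 15.8 CPM in DMSO libraries. The groups did not overlap, and the log2 change was -0.72 ± 0.123 (edgeR adjusted p = 0.000233), while Kif23 had 2.67. Inhibitor plus nocodazole libraries held 14.5, 15.3, 16.7 and 20.5 CPM, against 16.5, 14.6, 16.8 and 15.8 CPM in inhibitor libraries. Its interaction was 0.79 ± 0.172 (edgeR adjusted p = 0.00459), of the opposite sign to that of Kif23, and 0.86 without inhibitor plus nocodazole replicate 1.

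Prc1, which bundles midzone microtubules, and Bub1b, a spindle checkpoint kinase, were also picked after their values were seen. Bub1b rose by 2.24 after nocodazole (edgeR adjusted p = 2.48e-05). Its interaction was -2.19 ± 0.425 (edgeR adjusted p = 0.00235), of the same sign as that of Kif23. Inhibitor plus nocodazole libraries held 0.937, 0.626, 0.714 and 0.339 CPM of Bub1b, against 1.6, 1.765, 1.602 and 2.472 CPM in nocodazole libraries. That change was -1.49 (edgeR adjusted p = 0.000615). Without inhibitor plus nocodazole replicate 1, the highest of its group, the nocodazole change of Bub1b was 2.24 (edgeR adjusted p = 1.16e-05). With inhibitor present the change by nocodazole was then -0.19 (edgeR adjusted p = 0.918), against 0.05 in the full fit, and neither was called. The Bub1b change against nocodazole and the interaction without that library are not given here. Prc1 had changes of -1.76 in inhibitor plus nocodazole against nocodazole (edgeR adjusted p = 4.86e-06, and -1.69 without inhibitor plus nocodazole replicate 1) and -1.07 in inhibitor against DMSO (edgeR adjusted p = 0.00274). Top2a also fell in inhibitor plus nocodazole against nocodazole, with a log2 change of -1.62 (edgeR adjusted p = 0.00932, and -1.61 without that library). Its levels were very low, at 0.0565 to 0.186 CPM in inhibitor plus nocodazole libraries, against 0.179 to 0.683 CPM in nocodazole libraries. The ranges overlapped, and depth limits this call.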
